A study of Mus musculus with 12 samples.

Results

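Iron-sulfur cluster and heme synthesis was followed in 35 genes, found by symbol among the 46986 features of an RNA-seq table of mouse hematopoietic stem cells (HSCs). They were ordered into 5 roles. There were 8 genes of the mitochondrial core assembly, 8 of late mitochondrial assembly and transport and 6 of cytosolic assembly. The others were 8 heme enzymes and 5 mitochondrial transporters tied to heme, porphyrins, iron, their precursors or glutathione. Of the 35 genes, 30 reached at least 1 RPKM in 3 or more libraries and were tested, and 5 stayed under 1 RPKM in every library and are stated as not measured: Lyrm4, Nubpl, Alas2, Uros and Slc25a37. The 12 libraries came from HSCs of 12-week-old C57BL/6 mice, 3 in each of 4 groups. The ABX 5-FU group had ampicillin, neomycin, metronidazole and vancomycin in its drinking water for 4 to 6 weeks and was sampled on day 12 after 5-fluorouracil (5-FU) at 200 mg/kg into a vein. The control 5-FU group had the same 5-FU dose and day without antibiotics, the ABX group had the antibiotics alone, and the control group had neither. 5-FU is an antimetabolite that kills dividing cells, so the 5-FU groups hold HSCs of a regenerating marrow. The antibiotic mixture serves to deplete the gut flora, on which the table holds no measurement. Replicate numbers follow the order of the samples and only name a library. Libraries were made from 2000 sorted cells each. Neither the sort gates nor the animals behind each library are stated in the labels, so a p-value measures only the spread between these libraries. In such samples, fewer cells of a type and less RNA per cell cannot be told apart.

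Iron-sulfur clusters are small inorganic cofactors of the respiratory chain, of aconitase and lipoate synthase, and of DNA polymerases, helicases and repair glycosylases. In mitochondria a desulfurase passes sulfur to a scaffold protein, ferredoxin supplies electrons, a chaperone pair releases the cluster, and late factors build the larger clusters and hand them to target enzymes; a separate cytosolic machinery serves cytosolic and nuclear proteins. Heme is made by a chain of enzymes that begins and ends in mitochondria, with the middle steps in the cytosol, and its last enzyme, ferrochelatase, itself holds an iron-sulfur cluster in mammals. Most cells start the chain with Alas1, while erythroid precursors use Alas2 to supply hemoglobin.

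The table holds RPKM values made by the authors, in which reads are divided by a length and by library size. That length appears to be the whole span of a gene, introns included, which no label states. When each value was turned back into reads with the gene span, 46.6% to 61.2% of low values of genes with 1 transcript came within 0.05 of a whole read, against 7.82% to 12.4% with the exonic length. For genes with 2 to 4 transcripts the shares were 24.0% to 42.8% with the span and 7.4% to 11% with the exonic length. For genes with over 4 transcripts they were 11.3% to 25.3% and 7.87% to 11.4%, with no gain from the span in control replicate 3. All RPM values below rest on the span, and they are least certain for genes with many transcripts. On this reading a gene with long introns is given a low RPKM, and levels of different genes are compared here as RPM (reads of a gene in 1000000 reads of the library, which is RPKM times the span in kilobases) per exonic kilobase, with exonic lengths from GENCODE M21. Depth estimated from the same steps ran between 27.8 and 54.75 M reads per library. The 3 ABX libraries, at 29.15 to 37.8 M, were all shallower than the 3 control libraries, at 44.15 to 54.75 M. HSC genes were present, with Procr between 15.9 and 31.6 RPKM, Kit between 13.3 and 17.4 RPKM and Hlf between 4.47 and 7.82 RPKM in all libraries.

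Measured per exonic kilobase, the highest member was Hspa9, the mitochondrial chaperone that works on the scaffold, at 85.5 RPM per exonic kilobase averaged over 12 libraries. Nubp2, a scaffold of the cytosolic pathway, followed at 54.5, Hscb, the co-chaperone of Hspa9, at 48.6, and Slc25a39, a mitochondrial glutathione importer, at 47.0 on the same scale. Among the heme enzymes, Urod (uroporphyrinogen decarboxylase) stood at 33.1 and Alad (aminolevulinate dehydratase) at 29.9 RPM per exonic kilobase, while Cpox (coproporphyrinogen oxidase) stood at 1.89 and Alas2 at 0.617. These 2 were the lowest of the 35 genes on this scale.

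The order of the members differed between the scales. Ppox, whose span is little longer than its exonic length, ranked 12 by RPKM and 28 per exonic kilobase, and Narfl, whose span is 1.54 times its exonic length, ranked 10 and 21. In the other direction, Hscb ranked 13 by RPKM and 3 per exonic kilobase, where its span of 10708 bases is 11.8 times its exonic length. Lyrm4, the small partner protein that stabilises the desulfurase Nfs1, spans 138561 bases, which is 66.4 times its exonic length. Its values lay between 0.0681 and 0.121 RPKM, yet they stand for an estimated 262 to 680 reads per library, and it ranked 23 of the 35 genes per exonic kilobase. Nubpl, an assembly factor for complex I, had 305 to 856 estimated reads at 0.0473 to 0.0727 RPKM. Thus 4 of the 5 members stated as not measured had at least 262 estimated reads in every library, and Alas2 was the exception.

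**Figure D1:**
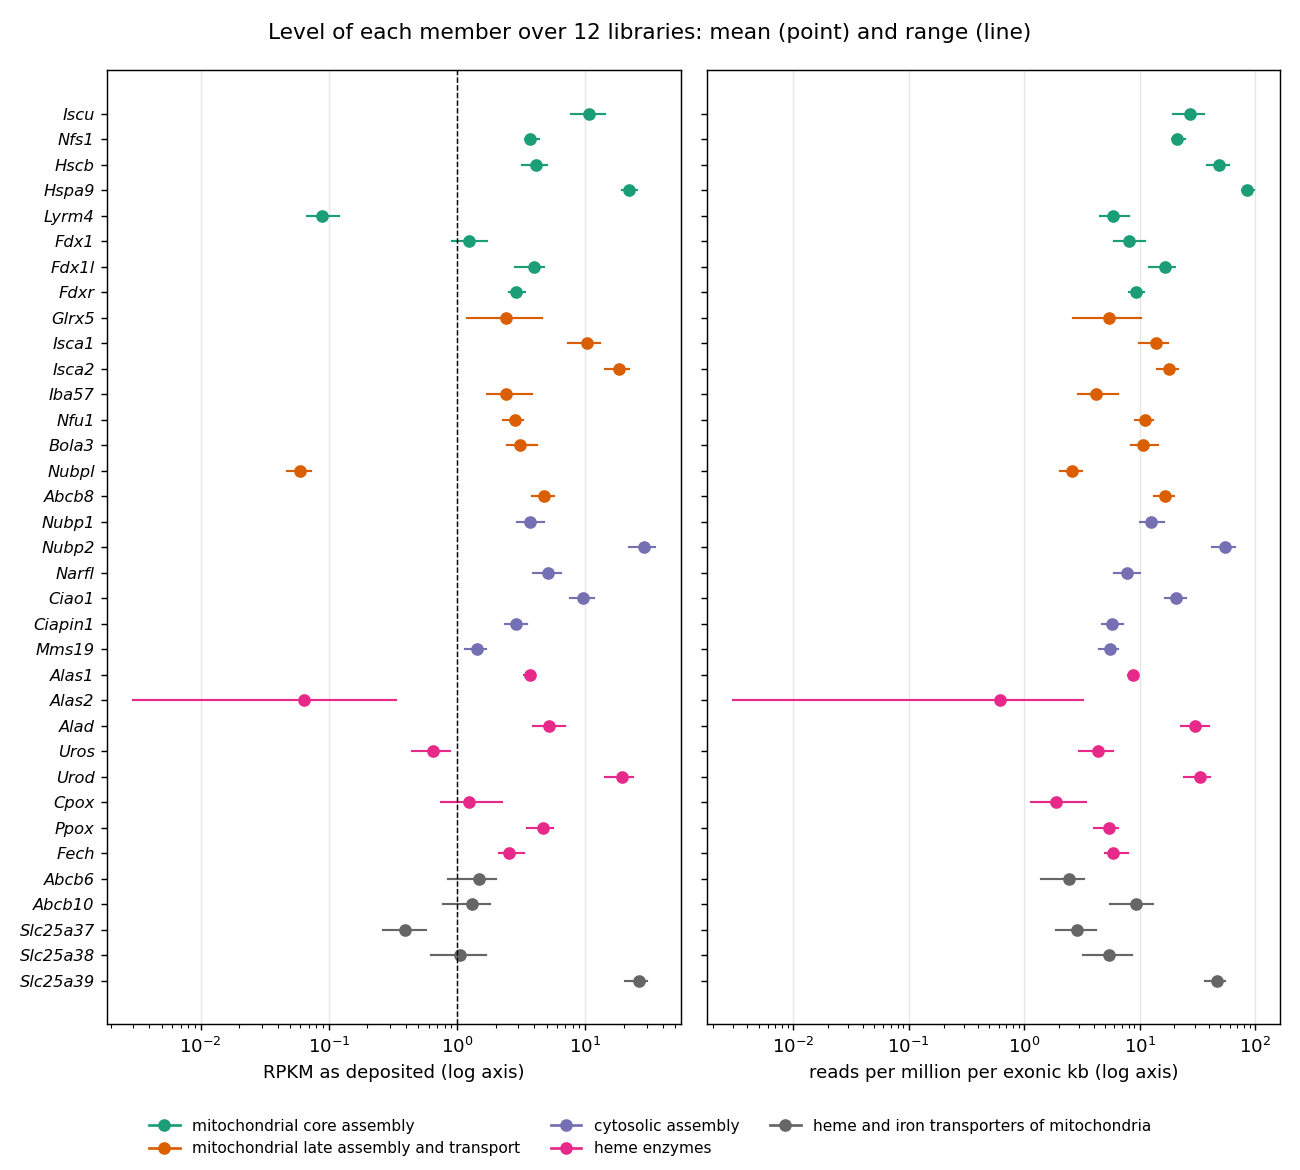
Each row is a member; the left panel gives RPKM as deposited and the right panel RPM per exonic kilobase, both on log axes, with the mean of 12 libraries as a point and their range as a line, colored by role. Members left of the dashed line at 1 RPKM were not measured by the rule, but Lyrm4, Nubpl, Uros and Slc25a37 move into the range of the other members in the right panel; Alas2 is at 0 in 1 library, which is drawn at the left end of its line.

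The upstream sequences of 4 members are shown because the results below turn on these genes: Isca1 and Alad changed in both 5-FU comparisons, Nubp1 fell in the comparison with antibiotics, and Alas2 is the erythroid enzyme. Each is the 250 bases before the RefSeq start (build GRCm38.p6, read 5′ to 3′ on the gene's strand), with the motif found by letter search in capitals.
Isca1: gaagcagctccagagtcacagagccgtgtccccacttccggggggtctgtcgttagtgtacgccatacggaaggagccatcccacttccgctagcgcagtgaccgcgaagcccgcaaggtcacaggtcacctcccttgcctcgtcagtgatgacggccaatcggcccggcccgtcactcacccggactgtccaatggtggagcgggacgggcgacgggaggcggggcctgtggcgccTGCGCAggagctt
Nubp1: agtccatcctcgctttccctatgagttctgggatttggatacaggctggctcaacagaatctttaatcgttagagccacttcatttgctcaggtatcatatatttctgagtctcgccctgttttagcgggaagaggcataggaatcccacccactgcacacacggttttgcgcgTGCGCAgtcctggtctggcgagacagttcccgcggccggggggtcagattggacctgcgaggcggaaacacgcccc
Alad: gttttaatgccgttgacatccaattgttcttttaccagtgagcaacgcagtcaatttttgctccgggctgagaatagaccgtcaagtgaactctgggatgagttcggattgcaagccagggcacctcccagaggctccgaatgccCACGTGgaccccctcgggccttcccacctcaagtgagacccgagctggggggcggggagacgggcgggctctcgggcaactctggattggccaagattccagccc
Alas2: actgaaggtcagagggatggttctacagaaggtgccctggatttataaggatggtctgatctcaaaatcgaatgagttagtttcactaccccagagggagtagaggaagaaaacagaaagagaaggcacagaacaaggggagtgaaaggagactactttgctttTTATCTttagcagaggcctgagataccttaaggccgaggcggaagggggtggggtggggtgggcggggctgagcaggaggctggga
The Isca1 window is chr13:59769790-59770039 (minus strand) and that of Nubp1 chr16:10411688-10411937 (plus strand); both hold TGCGCA, a half-site of the respiratory regulator NRF1, starting at positions -13 and -76 relative to the start. The Alad window, chr4:62520064-62520313 (minus strand), holds the E-box CACGTG at position -105. The Alas2 window, chrX:150547167-150547416 (plus strand), holds TTATCT, the reverse complement of the GATA motif AGATAA, at position -86.

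Promoter windows from 250 bases before to 50 after the start were found for 29 of the 35 members. Windows were searched on both strands, and a gene was counted if any of its windows held the motif. All genes with a window form the comparison, whether or not they were measured here, and differences in share were not tested. The E-box CACGTG was in 7 of the 29 (24.1%), against 8.09% of all 27025 genes with a window, and TGCGCA was in 6 (20.7%), against 8.79% of all genes. The GATA motif AGATAA, or its variant TGATAA, or the variant AGATAG, or the variant TGATAG, was in 9 members (31.0%), against 33.0% of all genes. The AP-1 motif TGACTCA was in 0 members, against 5.95% of all genes. Matches of different motifs were counted separately, whether or not they overlapped.

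After 5-FU with antibiotics, 9 of the 30 tested members were called, in both directions. Isca1, Hscb and Urod rose, and Hspa9, Fdx1, Fdx1l, Bola3, Nubp1 and Alad fell. The share, 3 members higher and 6 lower, stands beside 30.2% of all 8553 genes called in the same comparison, 13.7% higher and 16.5% lower, so the members were called about as often as any gene. Their median log2 change was 0.0272, against -0.0141 over all genes, and 29 of the 30 changed by less than 0.5 on the log2 scale. In 15 members (50%) the 3 libraries of one group lay above all 3 of the other, against 49.9% of all genes. By role, 4 of 7 tested core members (57.1%), 2 of 7 late (28.6%) and 1 of 6 cytosolic members (16.7%) were called. So were 2 of 6 heme enzymes (33.3%) and 0 of 4 transporters, against 30.2% of all genes. Calls are at an adjusted p of 0.05 in limma on log2(RPKM + 1), with Benjamini-Hochberg adjustment over all genes, and log2 changes are on that scale, given ± SE.

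After 5-FU without antibiotics, 2 of the 30 tested members were called: Isca1 rose and Alad fell. Over all genes 21.6% were called in this comparison, 9.74% higher and 11.8% lower, so fewer members were called than the general share. Their median log2 change was -0.0584, against 0.0045 over all genes, and the largest change was 0.43. The groups did not overlap in 7 members (23.3%), against 37% of all genes. The 2 arms share no libraries. Both members called here were also called with antibiotics, in the same direction, and 21 tested members were called in neither arm. All 5-FU libraries carry i7 index sequences that the other libraries do not, so index and 5-FU cannot be told apart.

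**Figure D2:**
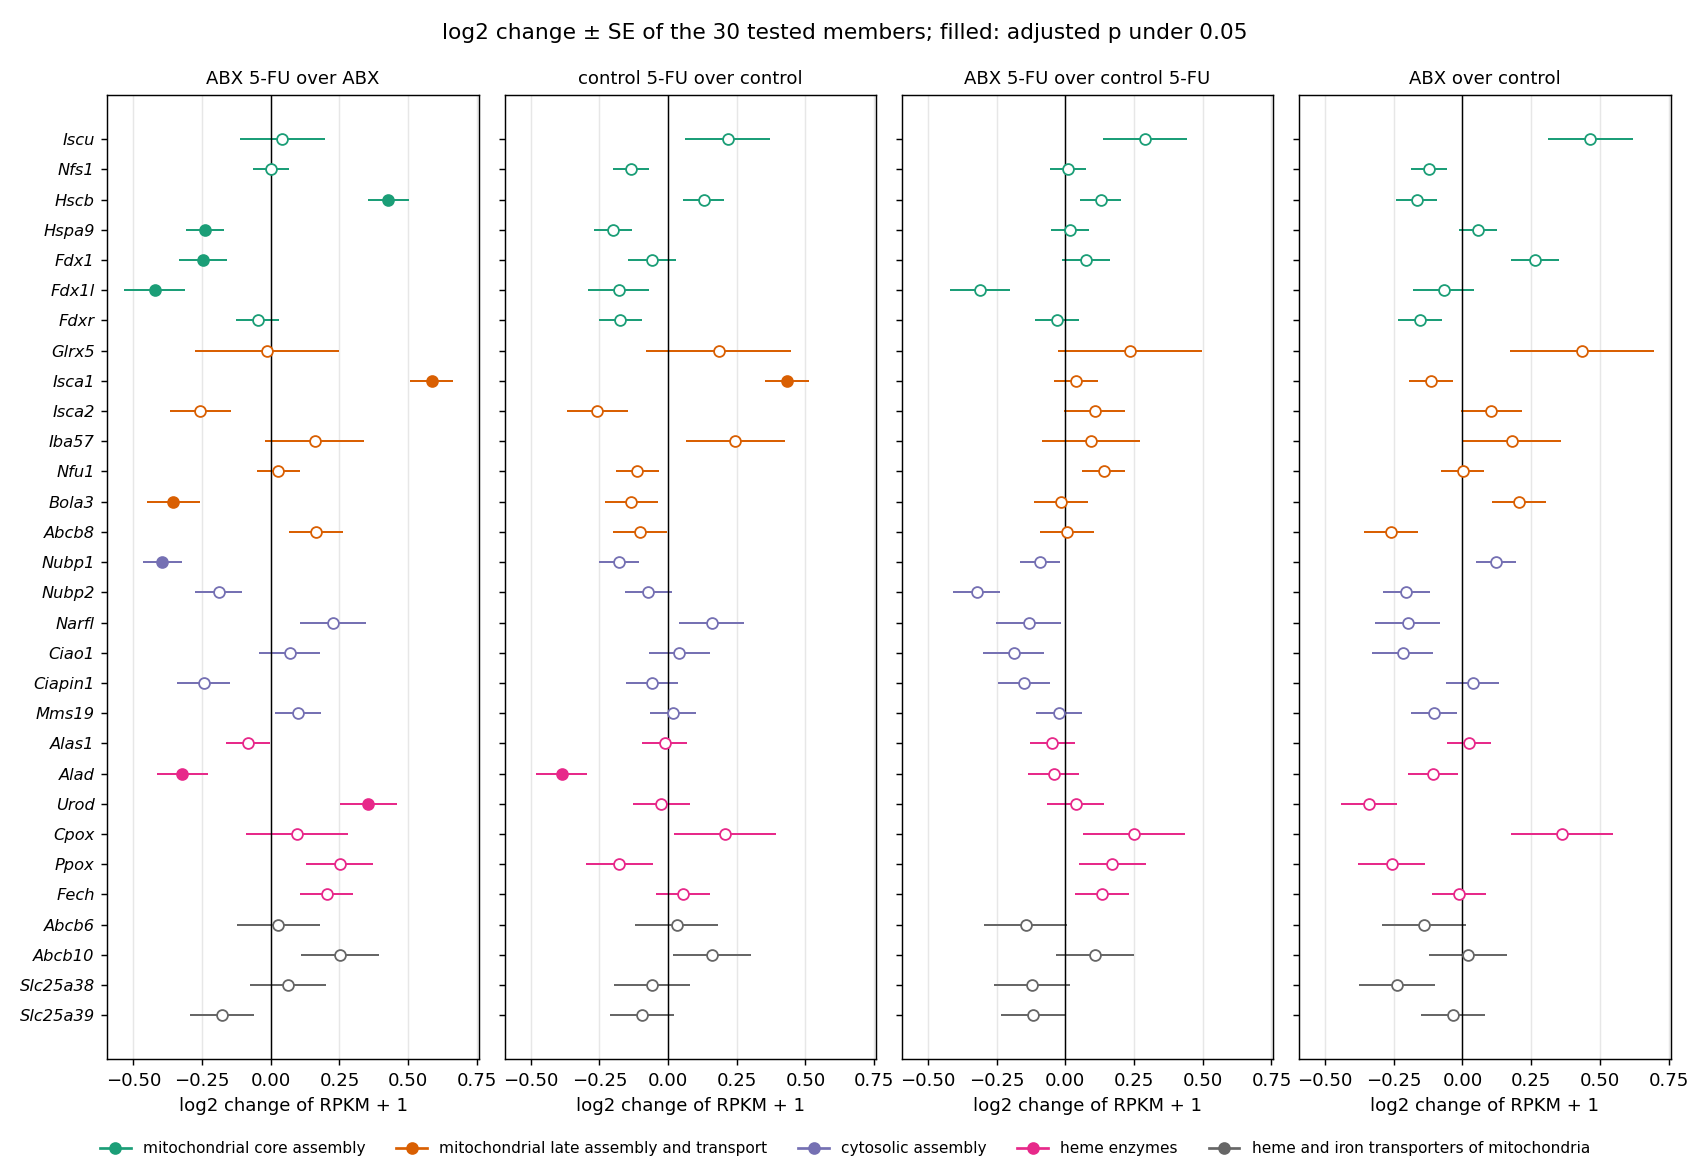
log2 change of RPKM + 1 with its SE for the 30 tested members, colored by role, in the comparisons ABX 5-FU over ABX, control 5-FU over control, ABX 5-FU over control 5-FU and ABX over control; filled points have an adjusted p under 0.05. There are 9 filled points in the first panel, 2 in the second and 0 in the other panels, and Isca1 in the first panel is the only point beyond 0.5.

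Isca1, at chr13:59755409-59769810 on the minus strand (mm10), encodes an A-type assembly protein that works with Isca2 and Iba57 to build the larger mitochondrial clusters. It had 12.5, 11.9 and 12.6 RPKM in ABX 5-FU libraries, against 7.76, 7.33 and 8.60 RPKM in ABX libraries, and 12.95, 11 and 12.04 RPKM in control 5-FU libraries, against 8.09, 8.79 and 8.96 RPKM in control libraries. Every 5-FU library was above every library without 5-FU. Isca1 rose by 0.59 ± 0.079 with antibiotics (limma, adjusted p = 0.000609) and by 0.43 ± 0.079 without (adjusted p = 0.00441), changes of 1.5-fold and 1.35-fold on the log2(RPKM + 1) scale. The 2 changes differed by 0.15 ± 0.11 (interaction, adjusted p = 0.736). Isca1 shares 314 of its 10680 exonic bases with the antisense gene Etohd2, whose level was 3.57 RPM against 147.0 for Isca1.

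Neither of its partners passed the threshold in these comparisons. Isca2 averaged 17.2 ± 1.84 RPKM in ABX 5-FU and 20.7 ± 0.847 RPKM in ABX libraries (SD, n = 3 each), and 16.0 ± 2.42 RPKM in control 5-FU against 19.2 ± 1.76 RPKM in control libraries. Its log2 changes were -0.26 ± 0.11 in both arms (adjusted p = 0.101 with antibiotics and 0.118 without), and Isca2 was called lower without antibiotics when control 5-FU replicate 2, the highest of its group at 18.8 RPKM, was left out (-0.37 ± 0.10, adjusted p = 0.0351). Iba57 averaged 2.75 ± 0.387 RPKM in ABX 5-FU and 2.37 ± 0.539 RPKM in ABX libraries, and 2.61 ± 1.08 RPKM in control 5-FU against 1.96 ± 0.0953 RPKM in control libraries, with overlapping groups in both arms. Isca2 thus had a negative and Iba57 a positive change in both arms, neither past the threshold.

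The other late factors hand finished clusters to target enzymes or carry them. Bola3, which with Nfu1 serves lipoate synthase and the respiratory chain, had 2.70, 2.45 and 3.10 RPKM in ABX 5-FU libraries, against 4.23, 3.90 and 3.26 RPKM in ABX libraries. The groups did not overlap, and Bola3 fell by 0.35 ± 0.098 on the log2 scale (adjusted p = 0.0192). In control 5-FU libraries it had 2.89, 2.91 and 2.54 RPKM, against 3.53, 2.99 and 2.92 RPKM in control libraries, with no overlap but a change of -0.13 ± 0.098 (adjusted p = 0.352). The Bola3 call with antibiotics was lost when ABX 5-FU replicate 1 or 2 or ABX replicate 1 or 2 was left out (adjusted p = 0.0525 to 0.0809), with no filter on low values (adjusted p = 0.0528), and on values rescaled to a common total (-0.22, adjusted p = 0.118). Nfu1 moved by 0.027 ± 0.078 with antibiotics (adjusted p = 0.820) and by -0.11 ± 0.078 without (adjusted p = 0.322). Abcb8, a mitochondrial ABC transporter tied to iron export, moved by 0.16 ± 0.099 (adjusted p = 0.230) and -0.10 ± 0.099 (adjusted p = 0.485) in the same order.

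In the core assembly machinery, Hscb rose with antibiotics and the chaperone it works with, Hspa9, fell. Hscb had 5.00, 4.75 and 4.79 RPKM in ABX 5-FU libraries, against 3.22, 3.26 and 3.58 RPKM in ABX libraries, and 4.31, 4.82 and 3.93 RPKM in control 5-FU libraries, against 3.74, 3.77 and 4.15 RPKM in control libraries. The groups were apart with antibiotics and overlapped without. Hscb rose by 0.43 ± 0.075 with antibiotics (adjusted p = 0.00209); without antibiotics the change was 0.13 ± 0.075 (adjusted p = 0.230), and it was called on values rescaled to a common total (0.28 ± 0.066, adjusted p = 0.0112). The difference between the arms, 0.30 ± 0.11, was not called (adjusted p = 0.558), and before 5-FU all ABX libraries lay below all control libraries. Hspa9 had 19.99, 19.6 and 20.8 RPKM in ABX 5-FU libraries, against 25.1, 23.4 and 23.3 RPKM in ABX libraries, and 19.4, 20.4 and 19.9 RPKM in control 5-FU libraries, against 25.0, 21.6 and 22.5 RPKM in control libraries. Every 5-FU library was below every library without 5-FU.

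The Hspa9 change was -0.24 ± 0.069 with antibiotics (adjusted p = 0.0240) and -0.20 ± 0.069 without (adjusted p = 0.0599). With antibiotics the Hspa9 call was lost when ABX 5-FU replicate 1 or 2 or ABX replicate 1 or 2 was left out (adjusted p = 0.0524 to 0.0848) and on rescaled values (-0.072, adjusted p = 0.498); without antibiotics it was gained when control replicate 2 was left out (-0.24, adjusted p = 0.0469). Rescaling moved the median of all genes to 0.118 with antibiotics and 0.140 without, against -0.0141 and 0.0045 as deposited, so changes on that scale are read against those medians.

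Of the ferredoxins, which pass electrons from the reductase Fdxr, both fell with antibiotics. Fdx1l, listed elsewhere as Fdx2 and the form that serves cluster assembly, had 3.02, 2.84 and 3.07 RPKM in ABX 5-FU libraries, against 4.23, 4.72 and 4.05 RPKM in ABX libraries. In the other arm it had 4.35, 4.57 and 3.01 RPKM in control 5-FU libraries, against 4.62, 4.34 and 4.79 RPKM in control libraries. Control 5-FU replicate 3 thus lay with the ABX 5-FU libraries and apart from its own group. Fdx1l fell by 0.42 ± 0.11 with antibiotics (adjusted p = 0.0150; 0.0547 and 0.0637 without ABX 5-FU replicate 2 and ABX replicate 2), and its change without antibiotics was -0.18 ± 0.11 (adjusted p = 0.265). Of its 1423 exonic bases, 1034 are also annotated to the overlapping gene Gm38431 on the same strand. Gm38431 was not found by symbol among the features, so its level is unknown. How reads of the shared bases were assigned is not stated.

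Fdx1, the ferredoxin best known from steroid synthesis, had 1.11, 1.12 and 1.25 RPKM in ABX 5-FU libraries, against 1.71, 1.60 and 1.38 RPKM in ABX libraries. In control 5-FU libraries it had 1.05, 1.03 and 1.06 RPKM, against 1.39, 0.916 and 1.12 RPKM in control libraries. The groups were apart with antibiotics and overlapped without. Its fall with antibiotics, -0.25 ± 0.086, was at the threshold (adjusted p = 0.0495). It was lost with any ABX 5-FU library or ABX replicate 1 or 2 left out (adjusted p = 0.0722 to 0.144), at a pseudocount of 0.1 (-0.40, adjusted p = 0.0587), with no filter on low values (adjusted p = 0.0936), on rescaled values (-0.15, adjusted p = 0.230) and as RPM (-0.41, adjusted p = 0.0597). Fdxr moved by -0.048 ± 0.079 with antibiotics (adjusted p = 0.684) and -0.17 ± 0.079 without (adjusted p = 0.139).

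The desulfurase and the scaffold themselves were not called. Nfs1 ranged over 3.36 to 4.34 RPKM in the 12 libraries and moved by -0.00044 ± 0.066 with antibiotics (adjusted p = 0.997) and -0.13 ± 0.066 without (adjusted p = 0.165). Iscu, the scaffold, averaged 12.4 ± 1.45 RPKM in ABX 5-FU and 12.0 ± 1.87 RPKM in ABX libraries, and 10.1 ± 2.36 RPKM in control 5-FU against 8.40 ± 0.740 RPKM in control libraries. Its changes were 0.043 ± 0.15 and 0.22 ± 0.15, and neither was called (adjusted p = 0.860 and 0.333).

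In the cytosolic pathway 1 of 6 members was called after 5-FU with antibiotics, against 30.2% of all genes, and 0 without, where 1 had an unadjusted p under 0.05, against 21.6% and 36.6% of all genes in limma. Nubp1, the scaffold ATPase that pairs with Nubp2, had 2.92, 2.96 and 3.38 RPKM in ABX 5-FU libraries, against 4.14, 4.76 and 4.20 RPKM in ABX libraries, and 3.36, 3.46 and 3.24 RPKM in control 5-FU libraries, against 4.16, 3.77 and 3.84 RPKM in control libraries. All 6 libraries with 5-FU were below all 6 without. Nubp1 fell by 0.39 ± 0.072 with antibiotics (adjusted p = 0.00259), and its change without was -0.18 ± 0.072 (adjusted p = 0.0976). The antisense gene Tvp23a shares 1341 of its 3637 exonic bases and was measured at 1.38 RPM, against 46.0 for Nubp1. Nubp2 averaged 24.1 ± 2.19 RPKM in ABX 5-FU and 27.6 ± 0.762 RPKM in ABX libraries, and 30.4 ± 1.59 RPKM in control 5-FU against 32.0 ± 2.84 RPKM in control libraries. Its changes, -0.19 ± 0.086 and -0.072 ± 0.086, were not called (adjusted p = 0.114 and 0.574). Narfl, Ciao1 and Mms19, which pass clusters on to cytosolic and nuclear enzymes, and Ciapin1, which supplies electrons, moved by -0.24 to 0.23 with antibiotics and by -0.058 to 0.16 without.

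Among the heme enzymes, Alad fell in both arms and Urod rose with antibiotics. Alad, which joins aminolevulinate molecules in the cytosol, had 3.94, 4.53 and 4.60 RPKM in ABX 5-FU libraries, against 5.13, 6.14 and 5.83 RPKM in ABX libraries, and 4.83, 4.61 and 4.10 RPKM in control 5-FU libraries, against 6.96, 5.73 and 5.97 RPKM in control libraries. All 6 libraries with 5-FU were below all 6 without. Alad fell by 0.32 ± 0.092 with antibiotics (adjusted p = 0.0226) and by 0.39 ± 0.092 without (adjusted p = 0.0140), and the arms differed by 0.065 ± 0.13. The call with antibiotics was lost without ABX 5-FU replicate 1, ABX replicate 2 or ABX replicate 3 (adjusted p = 0.0546 to 0.0897), with no filter on low values (0.0539) and on rescaled values (-0.18, adjusted p = 0.142). The call without antibiotics was lost without control 5-FU replicate 3 (adjusted p = 0.0580), with only these 2 groups in the fit (0.0516) and on rescaled values (-0.24, adjusted p = 0.0659).

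Urod, the decarboxylase that acts later in the chain than Alad, had 20.8, 20.2 and 20.8 RPKM in ABX 5-FU libraries, against 15.6, 14.2 and 18.0 RPKM in ABX libraries, and 21.4, 19.4 and 19.3 RPKM in control 5-FU libraries, against 23.6, 19.4 and 18.4 RPKM in control libraries. The ABX libraries were the lowest of the 4 groups, and the other groups overlapped. Urod rose by 0.35 ± 0.10 with antibiotics (adjusted p = 0.0244), and its change without was -0.024 ± 0.10 (adjusted p = 0.889). The difference between the arms was 0.38 ± 0.15 and was not called (adjusted p = 0.578). The Urod call was lost with any ABX 5-FU library or ABX replicate 1 or 2 left out (adjusted p = 0.0569 to 0.102) and with no filter on low values (0.0632).

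The remaining heme enzymes were not called. Alas1, the first enzyme in most cells, lay between 3.33 and 4.01 RPKM in all 12 libraries and moved by -0.082 ± 0.081 with antibiotics (adjusted p = 0.470) and -0.012 ± 0.081 without (adjusted p = 0.929). Fech, which inserts iron into the ring, averaged 2.86 ± 0.463 RPKM in ABX 5-FU and 2.34 ± 0.193 RPKM in ABX libraries, and 2.51 ± 0.278 RPKM in control 5-FU against 2.37 ± 0.196 RPKM in control libraries. Ppox, the enzyme before Fech, averaged 5.05 ± 0.245 RPKM in ABX 5-FU and 4.11 ± 0.653 RPKM in ABX libraries, and 4.39 ± 0.598 RPKM in control 5-FU against 5.11 ± 0.810 RPKM in control libraries. With antibiotics their changes, 0.20 ± 0.098 (adjusted p = 0.135) and 0.25 ± 0.12 (adjusted p = 0.139), became calls on rescaled values (Fech 0.33, adjusted p = 0.0336; Ppox 0.39, adjusted p = 0.0264), as did Narfl (0.37, adjusted p = 0.0393) and Abcb8 (0.31, adjusted p = 0.0378). Cpox lay between 0.748 and 2.23 RPKM and moved by 0.097 ± 0.19 and 0.21 ± 0.19. None of the 4 tested transporters was called in limma in any of the 5 comparisons, and none had an unadjusted p under 0.05 in any, against 42.9% of all genes after 5-FU with antibiotics and 36.6% without: Abcb6, a porphyrin transporter, Abcb10, which works with mitoferrin, Slc25a38, the mitochondrial glycine importer, and Slc25a39 moved by -0.18 to 0.25 with antibiotics and by -0.095 to 0.16 without.

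**Figure D3:**
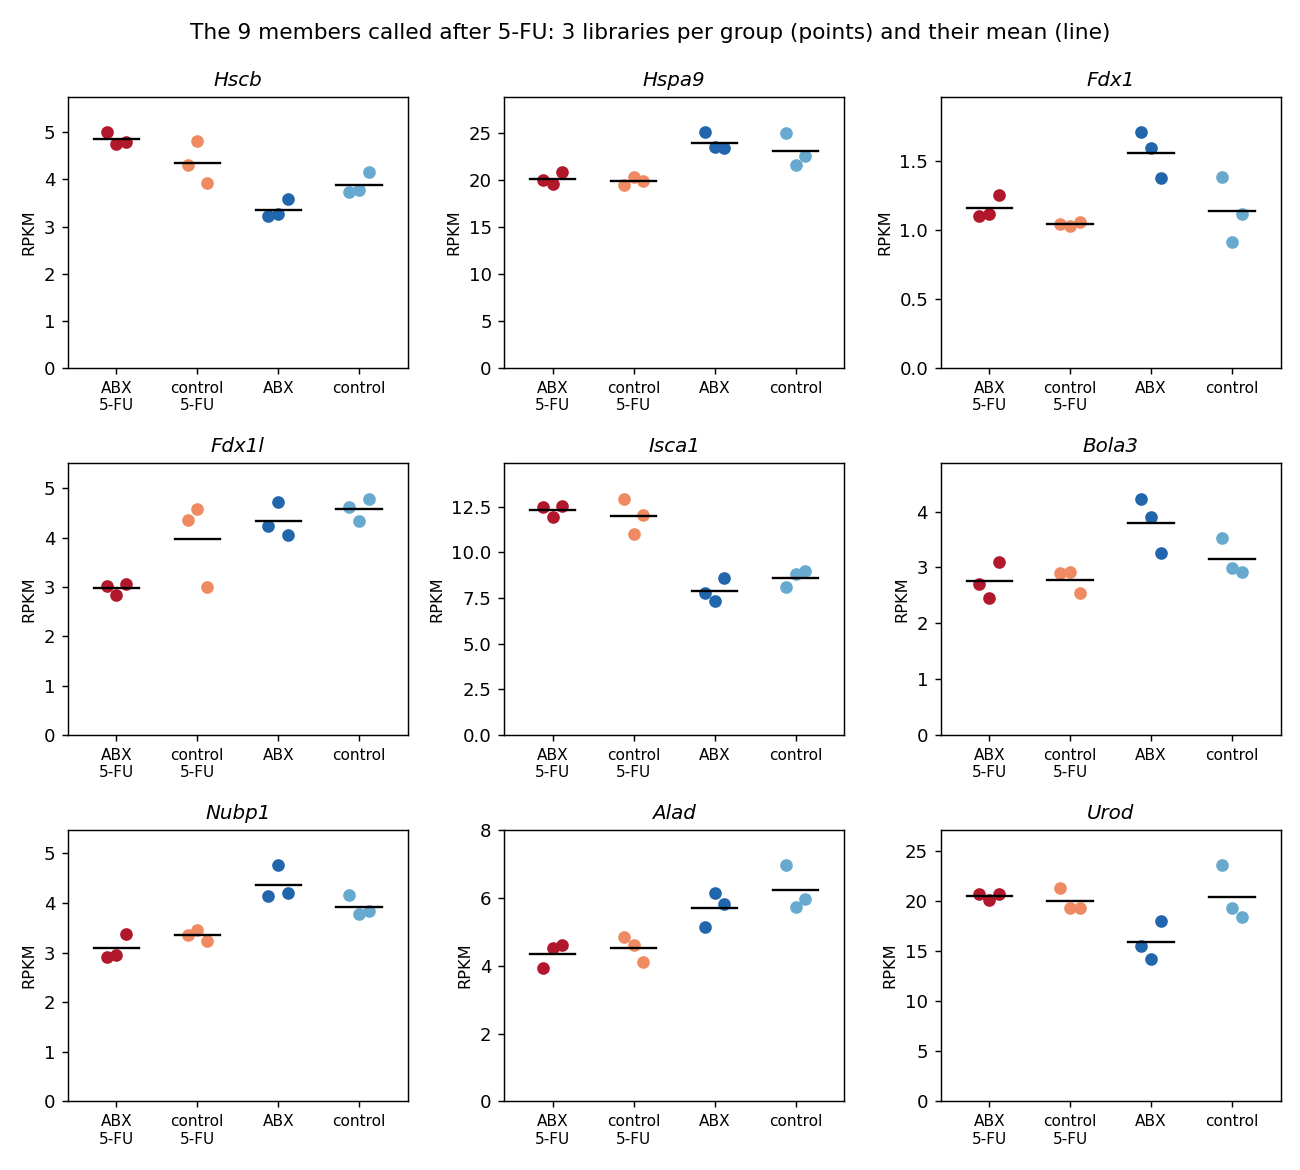
RPKM of the 9 members called after 5-FU, in 3 libraries per group (points) with their mean (line); every axis starts at 0. Isca1 is higher and Hspa9, Nubp1 and Alad are lower in all 6 libraries with 5-FU than in all 6 without; for Urod the ABX group lies below the others; for Fdx1l control 5-FU replicate 3 lies with the ABX 5-FU libraries.

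Markers of other states moved with 5-FU in these libraries. Of 6 cycling markers, 5 were called lower with antibiotics and 4 without, against 16.5% and 11.8% of all genes. The cycling sum ran from 65.7 to 74.2 RPKM in ABX 5-FU and 129.0 to 168.0 RPKM in ABX libraries. It ran from 63.2 to 84.8 RPKM in control 5-FU and 111.0 to 150.0 RPKM in control libraries. Of 17 erythroid markers, 9 were tested. With antibiotics 4 were called higher and 1 lower, against 13.7% and 16.5% of all genes. Without antibiotics 2 were called higher and 2 lower, against 9.74% and 11.8%. The sum of the 17 ran from 262.0 to 599.0 RPKM in ABX 5-FU and 172.0 to 182.0 RPKM in ABX libraries. It ran from 212.0 to 318.0 RPKM in control 5-FU and 157.0 to 426.0 RPKM in control libraries. The membrane genes of this list differed among themselves: Ermap and Tspo2 stayed under 0.375 RPKM everywhere and were at 0 in at least 1 library, and Slc4a1 was at 0 in several libraries and reached 1.44 RPKM in ABX 5-FU replicate 3. Rhag had 1.07, 0.883 and 1.02 RPKM in ABX 5-FU libraries against 0.291, 0.215 and 0.228 RPKM in ABX libraries, and 0.987, 0.473 and 0.577 RPKM in control 5-FU libraries against 0.264, 0.219 and 0.122 RPKM in control libraries. It was too low for the fit on RPKM, and on log2(RPM + 1) it rose by 1.89 ± 0.276 with antibiotics (limma, adjusted p = 0.00081) and by 1.59 ± 0.276 without (adjusted p = 0.00341). The HSC sum was 231.0 to 255.0 RPKM in ABX 5-FU and 174.0 to 214.0 RPKM in ABX libraries, and 247.0 to 270.0 RPKM in control 5-FU and 197.0 to 215.0 RPKM in control libraries. Megakaryocyte markers summed to 116.0 to 128.0 RPKM in ABX 5-FU and 80.5 to 83.6 RPKM in ABX libraries, and to 110.0 to 400.0 RPKM in control 5-FU and 58.2 to 143.0 RPKM in control libraries. Neutrophil and monocyte markers summed to 139.0 to 164.0 RPKM in ABX 5-FU and 112.0 to 142.0 RPKM in ABX libraries, and to 151.0 to 430.0 RPKM in control 5-FU and 137.0 to 154.0 RPKM in control libraries. The part of these markers in the changes of the members was not tested.

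The antibiotics were then compared at each state. After 5-FU, 0 of the 30 tested members were called between ABX 5-FU and control 5-FU libraries, against 0.117% of all genes, and 2 members had an unadjusted p under 0.05 against 14.9% of all genes. These were Nubp2, with 22.0, 24.0 and 26.4 RPKM in ABX 5-FU libraries against 30.4, 31.9 and 28.7 RPKM in control 5-FU libraries, and Fdx1l. For Nubp2 the groups did not overlap, and the change was -0.32 ± 0.086 (limma, adjusted p = 0.123). For Fdx1l the change was -0.31 ± 0.11 (adjusted p = 0.216), and without control 5-FU replicate 3 it was -0.46 ± 0.078 and called (adjusted p = 0.0435). The groups did not overlap in 3 members (10%), Nubp2 lower and Fdx1 and Nfu1 higher, against 21.2% of all genes. The median log2 change of the members was 0.00862, against 0.0143 over all genes.

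At steady state, 0 members were called between ABX and control libraries, against 0.0702% of all genes, and 6 had an unadjusted p under 0.05, against 17.8% of all genes. Urod had 15.6, 14.2 and 18.0 RPKM in ABX libraries against 23.6, 19.4 and 18.4 RPKM in control libraries, with no overlap and a change of -0.34 ± 0.10 (limma, adjusted p = 0.163). Iscu had 14.1, 11.4 and 10.54 RPKM in ABX libraries against 9.16, 7.68 and 8.35 RPKM in control libraries, also without overlap (0.46 ± 0.15, adjusted p = 0.183). Fdx1 moved by 0.26 ± 0.086 (adjusted p = 0.180), Abcb8 by -0.26 ± 0.099 (adjusted p = 0.223), Nubp2 by -0.20 ± 0.086 (adjusted p = 0.248) and Hscb by -0.17 ± 0.075 (adjusted p = 0.274). The groups did not overlap in 7 members (23.3%), against 22.1% of all genes. Depth also differed between these groups without overlap, as given above, and its part was not tested. As RPM, with all 35 members in the fit, 0 were called in each antibiotic comparison, against 0.021% of all genes at steady state and 0.119% after 5-FU.

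For the interaction, which asks whether the 5-FU change differed between the arms, 0 of the 30 members were called in limma, against 0.0117% of all genes. Of the 30, 3 had an unadjusted p under 0.05 against 8.3% of all genes: Hscb and Urod, given above, and Ppox (0.43 ± 0.17, adjusted p = 0.589). As RPM the count was also 0, against 0% of all genes. The SE of a member's interaction had a median of 0.139, and 3 libraries per group set that precision. The larger number of members called with antibiotics than without is therefore not shown to be a difference between the arms for any single member.

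Spread between libraries of 1 group was uneven over the members. The SD of log2(RPKM + 1) within groups was 0.374 for Glrx5, the glutaredoxin that carries clusters from the scaffold, 0.258 for Cpox, 0.251 for Iba57 and 0.210 for Iscu, and 0.0581 for Nfs1. Glrx5 had 2.79, 1.88 and 3.68 RPKM in ABX 5-FU libraries against 4.57, 2.40 and 1.76 RPKM in ABX libraries, and 1.67, 2.08 and 2.79 RPKM in control 5-FU libraries against 2.41, 1.18 and 1.86 RPKM in control libraries. ABX 5-FU replicate 3 and ABX replicate 1 were the highest of their groups for Glrx5, Cpox, Iscu and Iba57 alike. With this spread, the Glrx5 changes of -0.013 ± 0.26 with antibiotics and 0.18 ± 0.26 without leave room for differences in either direction.

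The members under 1 RPKM were described as RPM. On this scale 14317 genes and all 35 members could be tested, and the calls after 5-FU were 3 members higher and 6 lower with antibiotics, against 21.9% of all genes (11.6% higher and 10.3% lower), and 1 higher and 1 lower without, against 16.9% (8.94% higher and 7.97% lower). With antibiotics Slc25a37 was called and Fdx1 was not. Slc25a37 (mitoferrin-1), which imports iron for heme and cluster synthesis, had 12.98, 11.35 and 13.6 RPM in ABX 5-FU libraries against 16.9, 22.1 and 25.0 in ABX libraries, and 11.4, 14.7 and 20.95 in control 5-FU libraries against 16.05, 20.96 and 19.6 in control libraries. The groups did not overlap with antibiotics and overlapped without. Slc25a37 fell by 0.70 ± 0.21 with antibiotics (limma on log2(RPM + 1), adjusted p = 0.0322), and its change without was -0.28 ± 0.21 (adjusted p = 0.385). This scale was chosen after the data had been seen.

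Uros, the enzyme that closes the ring, had 10.9, 12.6 and 14.25 RPM in ABX 5-FU libraries, 20.95, 17.02 and 14.4 in control 5-FU libraries, 12.4, 10.6 and 15.4 in ABX libraries and 20.8, 17.8 and 19.5 in control libraries. Both antibiotic groups lay below their counterparts without overlap, with changes of -0.44 ± 0.175 after 5-FU (adjusted p = 0.318) and -0.57 ± 0.175 at steady state (adjusted p = 0.205). Lyrm4 lay between 9.43 and 16.8 RPM and Nubpl between 10.2 and 15.6, with no call in any comparison.

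**Figure D4:**
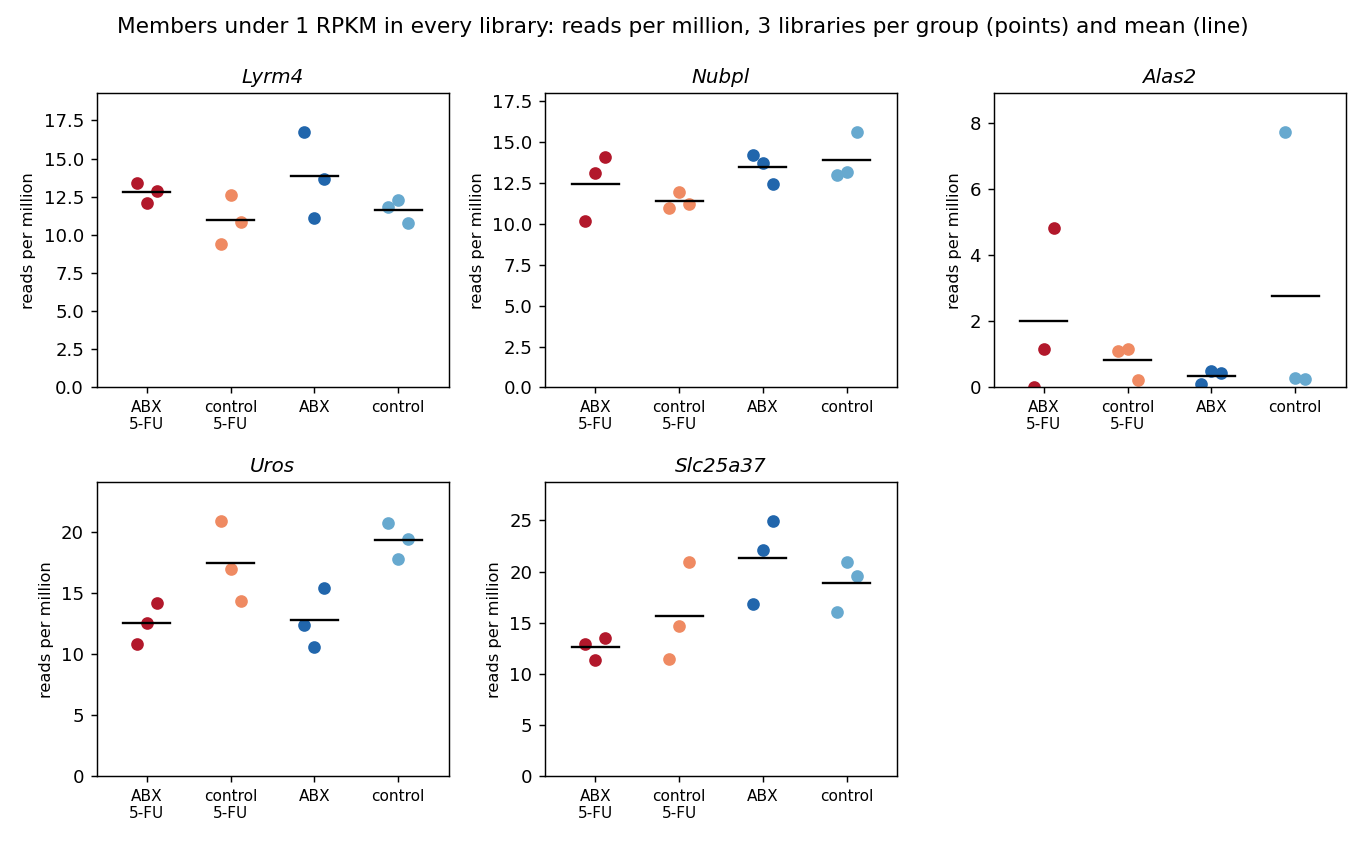
RPM of the 5 members under 1 RPKM in every library, in 3 libraries per group (points) with their mean (line); every axis starts at 0. Slc25a37 is lower in all ABX 5-FU than in all ABX libraries, Uros is lower in each antibiotic group than in its counterpart, and Alas2 is high in 1 ABX 5-FU and 1 control library.

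Alas2 was near 0 in most libraries. It had 4.83 RPM (an estimated 186 reads) in ABX 5-FU replicate 3 and 7.73 RPM (341 reads) in control replicate 1, and between 0 and 1.17 in the other libraries. The same 2 libraries had the highest summed globin transcripts Hba-a1, Hba-a2 and Hbb-bs, at 340.7 RPKM in ABX 5-FU replicate 3 and 244.1 RPKM in control replicate 1, with 4.47 to 99.55 RPKM in the others. The fourth globin gene, Hbb-bt, is not in this sum and followed it only in part. It had 131.6, 119.8 and 158.5 RPKM in ABX 5-FU libraries and 99.3, 121.0 and 102.5 RPKM in control 5-FU libraries. Without 5-FU it had 25.2, 40.75 and 37.7 RPKM in ABX libraries and 53.6, 11.3 and 24.5 RPKM in control libraries. ABX 5-FU replicate 3 was thus the highest of all libraries for Hbb-bt. Control replicate 1 was the highest of those without 5-FU but below all 6 libraries with 5-FU. Alas2 shares 311 of its 2403 exonic bases with the antisense gene Apex2, which was measured at 10.8 to 18.7 RPM, and how reads of the shared bases were assigned is not stated. Its fitted changes of 0.80 ± 0.72 with antibiotics and -0.45 ± 0.72 without on log2(RPM + 1) were not called (adjusted p = 0.458 and 0.707).

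**Figure D5:**
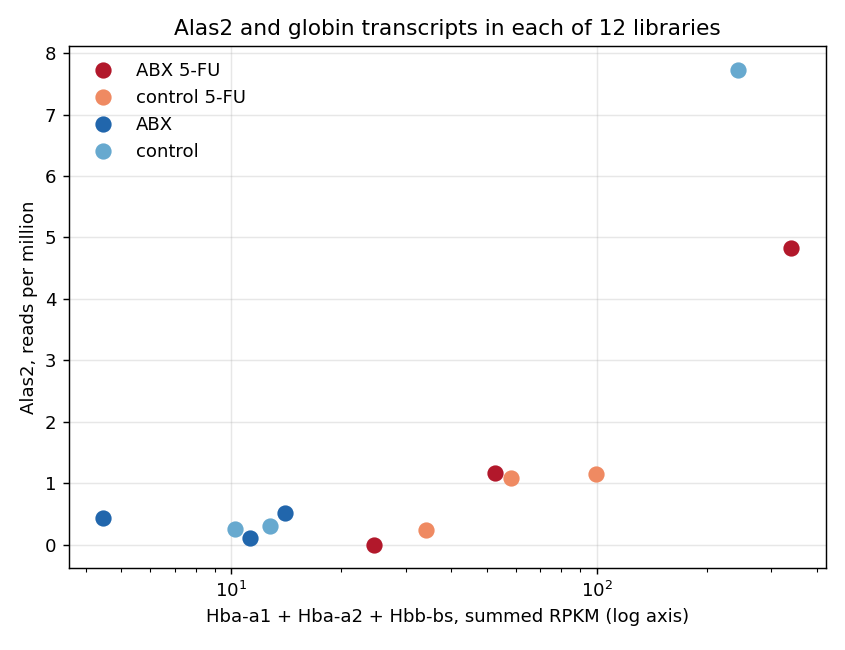
Alas2 in RPM against the summed RPKM of Hba-a1, Hba-a2 and Hbb-bs on a log axis, 1 point per library, colored by group. The 2 libraries above 1.17 RPM of Alas2 are ABX 5-FU replicate 3 and control replicate 1, which also have the highest sum of these 3 globins; Hbb-bt is not plotted.

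Other genes of the pathway came from 4 further lists, of which 49 of 65 genes were tested. With antibiotics 5 rose and 10 fell (30.6%), against 30.2% of all genes called, and without antibiotics 3 rose and 4 fell (14.3%), against 21.6% of all genes. None was called in limma in the antibiotic comparisons, where 4 had an unadjusted p under 0.05 at steady state (17.8% of all genes) and 7 after 5-FU (14.9% of all genes), nor in the interaction, where 5 did (8.3% of all genes). Among 14 further assembly and heme synthesis genes, Fam210b, which supports erythroid heme synthesis, rose in both arms (0.38 ± 0.12, adjusted p = 0.0307 with antibiotics; 0.37 ± 0.12, adjusted p = 0.0437 without), and Clpx, the protease subunit that activates and turns over ALAS, rose with antibiotics (0.30 ± 0.084, adjusted p = 0.0213). Hspe1, the small mitochondrial chaperonin, fell in both (-0.72 ± 0.13, adjusted p = 0.00282; -0.43 ± 0.13, adjusted p = 0.0407). Ndufab1, the acyl carrier protein bound to Lyrm4, fell by 0.44 ± 0.096 (adjusted p = 0.00627) and the cytosolic cluster carrier Bola2 by 0.60 ± 0.14 (adjusted p = 0.00901) with antibiotics.

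Of the proteins that receive clusters, 4 of 11 tested mitochondrial ones (36.4%) were called in limma with antibiotics, against 30.2% of all genes, and 0 without, against 21.6%. Without antibiotics 3 had an unadjusted p under 0.05, against 36.6% of all genes. Lias (lipoate synthase; 0.27 ± 0.064, adjusted p = 0.00951) and Etfdh (0.29 ± 0.095, adjusted p = 0.0398) rose, and the complex I subunits Ndufs7 (-0.34 ± 0.088, adjusted p = 0.0146) and Ndufv2 (-0.31 ± 0.10, adjusted p = 0.0375) fell. Of 13 tested cytosolic and nuclear ones, 4 were called in limma with antibiotics (30.8%), against 30.2% of all genes. Without antibiotics 3 of the 13 were called (23.1%), against 21.6%. Pold1, the catalytic subunit of DNA polymerase delta, fell in both arms. It had 5.52 ± 0.165 RPKM in ABX 5-FU against 13.9 ± 2.08 RPKM in ABX libraries (-1.18 ± 0.17, adjusted p = 0.000818). In control 5-FU it had 7.53 ± 2.0 RPKM against 13.1 ± 2.54 RPKM in control libraries (-0.73 ± 0.17, adjusted p = 0.0126). Rsad2 (viperin), an interferon-induced radical enzyme, rose in both (0.81 ± 0.087, adjusted p = 0.00017; 0.41 ± 0.087, adjusted p = 0.0092). Dph2, of diphthamide synthesis, fell by 0.62 ± 0.099 (adjusted p = 0.00129) and Ppat, of purine synthesis, by 0.30 ± 0.093 (adjusted p = 0.0333) with antibiotics, and the repair glycosylase Nthl1 fell by 0.26 ± 0.075 without (adjusted p = 0.0302). Of 11 tested genes of heme use, breakdown and sensing, Nr1d2, a heme-binding nuclear receptor, rose without antibiotics (0.56 ± 0.14, adjusted p = 0.0192), and 0 were called with antibiotics, where 3 had an unadjusted p under 0.05, against 42.9% of all genes. With antibiotics the changes of Pold1, Rsad2, Hspe1, Dph2 and Bola2 were larger in size than that of Isca1.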

How the data were processed

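RNA of 2000 sorted cells per library was made into cDNA with SMART-Seq v4 and Nextera XT, per the labels' protocols, a chemistry that does not mark strand. Per the submitters' processing notes, STAR 2.5.3a and Partek were used with mm10, and no label gives the counting rule or annotation. RPKM values were computed by the authors and deposited as 1 table, with 0.0001 in place of 0; every library column was used.

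In limma 3.58.1 (R 4.3.3), log2(RPKM + 1) was fitted over 8553 genes, those reaching 1 RPKM in 3 or more libraries, with 4 group means over 12 libraries, 8 residual degrees of freedom, empirical Bayes with an intensity trend, and p-values, two-sided, were Benjamini-Hochberg adjusted over all genes in each of 5 comparisons and called at 0.05. The procedure was tested on simulated data. An exact permutation test of 3 against 3 libraries cannot go below 0.1 and was not run. Reads were estimated from RPKM, gene span and a depth at which low values of intronless features came out whole (69.9% to 76.7% within 0.05). Since the other low values did not come out whole, these estimates are not exact counts and no count test was run. Intervals from counting are not given, since the spread between libraries is used. Members, lists and tests were chosen with earlier results of these data known. Named are all members, with full values for those called in any comparison, and the called genes with the smallest adjusted p from each further list; some genes of these lists are not reported here. Coordinates are those of the table, and 25 of 35 members match GENCODE M21; promoters are from RefSeq (GRCm38.p6), where Fdx1l was found as Fdx2 and Narfl as Ciao3.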

Additional observations from a re-analysis of the deposited data

How the results depend on the processing

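The calls for Isca1 in both 5-FU comparisons and for Hscb and Nubp1 with antibiotics held under all 12 alternatives tried for each (pseudocount, filter, rescaling to a common total, no intensity trend, only the groups compared, RPM, and each of 6 libraries left out); no named call reversed. The labels give no replicate numbers by which to pair libraries. The i7 index, shared by 1 library with and 1 without antibiotics, paired them as a block in the antibiotic comparisons and the interaction and gave 0 member calls in each; for 5-FU, which shares no index between its groups, no pairing was available.

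With only the groups compared, 1 member was called after 5-FU without antibiotics, and all-gene calls were 812 there (1846 with all groups) and 3 for antibiotics after 5-FU (10 with all groups). With no filter, 5 members were called after 5-FU with antibiotics, and 11 genes at steady state and 7 for the interaction over all genes. On rescaled values the members' median was 0.0923 without and 0.14 with antibiotics, and all-gene calls were 12 at steady state and 50 for antibiotics after 5-FU. With the index as a block, all-gene calls were 20, 22 and 0 for antibiotics at steady state, after 5-FU and the interaction; as RPM, which was chosen after seeing the data, they were 3, 17 and 0.

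Leaving out 1 library at a time gave 3 to 8 members after 5-FU with antibiotics: 4 without ABX 5-FU replicate 1, 4 without ABX 5-FU replicate 2, 5 without ABX replicate 1 and 3 without ABX replicate 2. It gave 1 to 3 without antibiotics (1 without control 5-FU replicate 3) and 0 to 1 for antibiotics after 5-FU. These fits have fewer samples. The members' median ran from -0.0335 to 0.0354 after 5-FU with antibiotics (the lowest without ABX 5-FU replicate 3), -0.0897 to 0.00404 without (the highest without control replicate 1), -0.0993 to -0.0361 for antibiotics at steady state and -0.0145 to 0.0758 for the interaction. All-gene calls ran from 1620 to 2444, 941 to 2080, 1 to 25, 6 to 28 and 0 to 3 for 5-FU with and without antibiotics, antibiotics at steady state and after 5-FU, and the interaction. The causes of these shifts were not tested.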
